A study of Mus musculus with 16 samples.

Results

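The fibroblast growth factor (FGF) receptors and ligands described here are 10 mouse genes: the receptor genes Fgfr1, Fgfr2, Fgfr3, Fgfr4 and Fgfrl1, and the FGF genes Fgf1, Fgf2, Fgf7, Fgf11 and Fgf18. They were taken by symbol from 25719 listed genes, all 10 were found, and all 10 passed the filter on low counts that left 14803 genes for testing. RNA was sequenced from tail tendon fascicles, the collagen-rich strands pulled from the mouse tail, in 8 libraries labelled WT (wild type) and 8 labelled KO. The KO mice are ScxCre;Vhlf/f: Scx, a tendon gene, drives the Cre recombinase that cuts the floxed Vhl gene, so cells outside the Scx lineage keep Vhl. No other treatment, age or sex is given in the labels, nor whether the WT mice carry the floxed allele or Cre. The labelled cell type is all cells of the tissue, and nothing in the labels says whether each library is a separate animal, so the p-values measure the spread between libraries.

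FGFs are growth factors that bind heparan sulphate chains and, together with them, pair and activate receptor tyrosine kinases at the cell surface. The active receptors signal through adaptor proteins to the RAS-ERK, phosphoinositide 3-kinase and phospholipase C gamma routes, and ERK induces both transcription factors of the ETS family and inhibitors that damp the same route. In the embryo, FGFs made by the myotome induce Scx-expressing tendon progenitors. The Vhl protein belongs to a ubiquitin ligase and marks hydroxylated hypoxia-inducible factor (HIF) for degradation, and the comparison asks which of these genes differ in fascicles when it is deleted.

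The KO libraries held 10488355 to 18753254 counts each and the WT libraries 10792900 to 16379401. Levels are counts relative to library size (CPM), with library sizes scaled by trimmed mean of M-values (TMM), and the detection floor of 3 counts stood at 0.145 to 0.336 CPM. Vhl lay between 7.51 and 10.9 CPM in the KO libraries and between 14.1 and 25.8 CPM in the WT libraries, with no overlap. The marker lists below are read beside all tested genes, of which 25.6% were called higher in the KO and 22.7% lower. Tenocyte markers were abundant in all libraries, and all 12 of that list were tested, 2 rising and 7 falling in the KO. Their summed level was 83838 to 185550 CPM in the KO and 137796 to 387802 CPM in the WT. Endothelial markers were higher in the KO, with 10 of 12 tested genes of a list of 15 rising and a summed level of 87.1 to 713.7 CPM against 52.9 to 73.2 CPM. Of 10 tested mural cell markers 7 rose in the KO and 1 fell. Their summed level, 377.2 to 2302 CPM in the KO and 359.03 to 516.5 CPM in the WT, overlapped between genotypes. Skeletal muscle markers varied between 457.8 and 26951 CPM in the KO and between 104.5 and 11522 CPM in the WT. The summed keratinocyte markers were lower in the KO with no overlap, at 21.1 to 26.4 CPM against 27.3 to 54.7 CPM, and 2 of the 3 tested genes of that list of 9, Dsp and Krt10, fell. Dsp held the largest part of that sum, with means of 12.0 CPM in the KO and 24.2 CPM in the WT. The other tested gene, Trp63, did not pass (log2 fold change 0.18, edgeR quasi-likelihood test, adjusted p = 0.411). In the rest of the list, Krt1 and Krt15 were at 0 in all 16 libraries and Dsg3 in all but 1. Krt5 had means of 0.0167 CPM in the KO and 0.0212 CPM in the WT, Krt14 of 0.0603 and 0.0512 CPM, and Lor of 0.182 and 0.276 CPM. In these bulk samples fewer cells of a type and less RNA per cell cannot be told apart, and the part of the vessel and keratinocyte markers in the results below was not tested.

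Of the 10 genes, 7 passed the test (edgeR quasi-likelihood test, adjusted p under 0.05 over all 14803 genes): Fgf2 and Fgf11 rose in the KO, and Fgfr1, Fgfr3, Fgfr4, Fgf1 and Fgf18 fell. Fgfr2, Fgfrl1 and Fgf7 did not pass. Among all tested genes 48.3% were called, 25.6% higher and 22.7% lower, so a large number of calls is usual in this comparison. The 10 genes were chosen with earlier results of these data known, so a share of calls above that of all genes is not evidence about them as a group. The KO libraries did not overlap the WT libraries for 4 of the 10, namely Fgf11, Fgfr1, Fgfr4 and Fgf1, where 19.4% of all tested genes did not overlap. By direction these were 1 higher and 3 lower, beside 10.8% and 8.61% of all tested genes. The median log2 fold change was -0.21 over the 10 genes and 0.02 over all tested genes. Scaling to total counts in place of TMM moved the median of all genes to 0.32 and the share of calls that were higher from 53.0% to 85.4%. On that scale Fgfr1 and Fgfr3 lost the threshold, Fgfr2 and Fgfrl1 passed it as higher, and the split of the 10 genes was 4 higher and 3 lower.

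**Figure D1:**
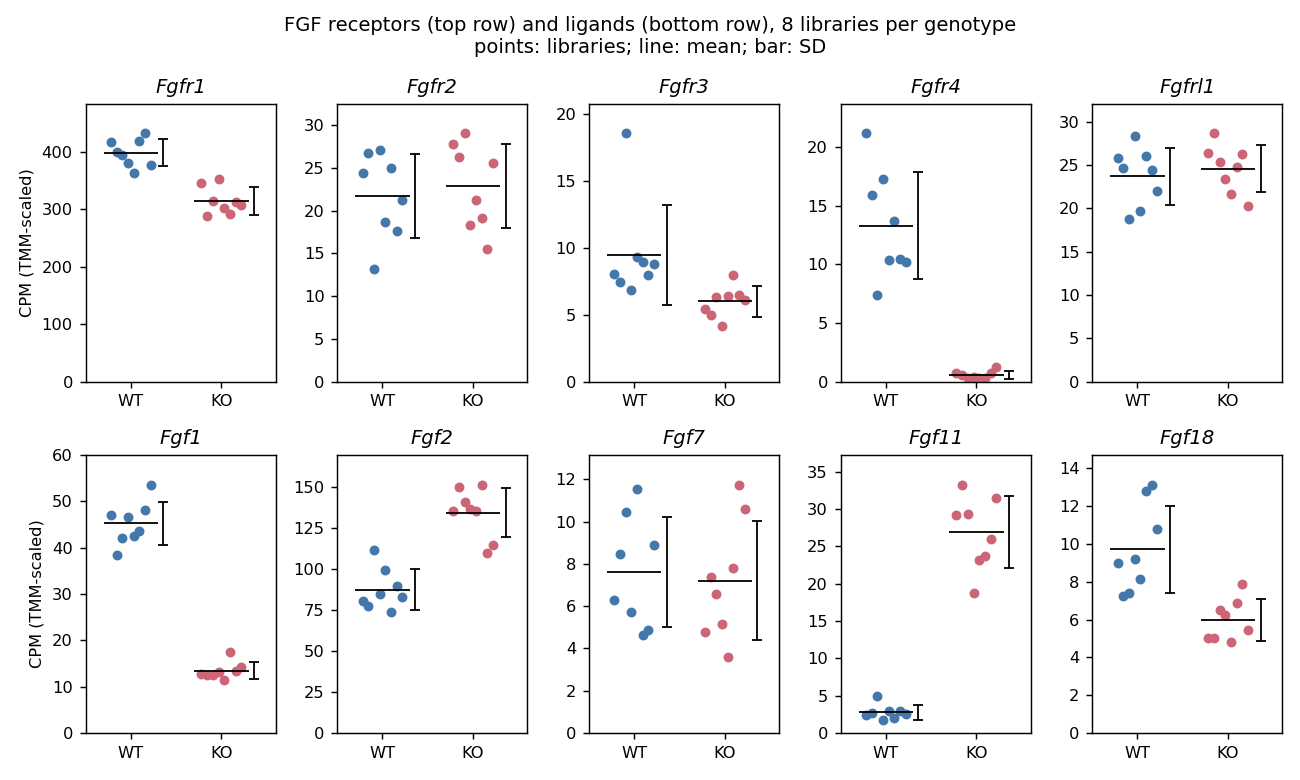
Level of each FGF receptor (top row) and FGF gene (bottom row) in CPM on TMM-scaled library sizes, from 0, for 8 WT and 8 KO libraries. Points are libraries, lines are means and bars are SD. The 8 KO libraries of Fgfr4 lie between 0.297 and 1.27 CPM and its WT libraries between 7.41 and 21.2 CPM, whereas Fgf11 has the opposite order.

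The bases upstream of the start are shown for the 3 genes with the largest fall, the largest rise and the most abundant ligand, since HIF binds a short core in DNA. RefSeq windows of 250 bases before the start were searched for 8 of the 10 genes, with 9 windows in all. Their build is GRCm38.p6, other than the GRCm39 named in the submitters' processing notes. No window of Fgfr1 or Fgf1 was searched, so the count of genes with a match leaves both out. The core was searched as ACGTG and GCGTG on both strands, where the palindrome CACGTG counts once on each strand. Capitals mark each match, which reads CACGT or CACGC where it lies on the other strand. The windows are chr13:55152568-55152817 on the plus strand for Fgfr4, chr3:37348403-37348652 on the plus strand for Fgf2 and chr11:69802281-69802530 on the minus strand for Fgf11.
Fgfr4: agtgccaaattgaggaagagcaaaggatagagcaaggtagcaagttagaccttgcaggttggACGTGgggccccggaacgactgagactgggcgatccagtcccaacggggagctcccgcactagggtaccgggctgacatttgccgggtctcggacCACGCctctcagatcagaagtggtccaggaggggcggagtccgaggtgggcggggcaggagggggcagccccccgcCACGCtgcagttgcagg
Fgf2: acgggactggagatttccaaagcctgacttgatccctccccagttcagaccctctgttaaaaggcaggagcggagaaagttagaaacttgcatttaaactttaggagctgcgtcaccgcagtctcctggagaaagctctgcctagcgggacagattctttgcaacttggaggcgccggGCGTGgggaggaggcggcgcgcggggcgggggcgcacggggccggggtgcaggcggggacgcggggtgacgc
Fgf11: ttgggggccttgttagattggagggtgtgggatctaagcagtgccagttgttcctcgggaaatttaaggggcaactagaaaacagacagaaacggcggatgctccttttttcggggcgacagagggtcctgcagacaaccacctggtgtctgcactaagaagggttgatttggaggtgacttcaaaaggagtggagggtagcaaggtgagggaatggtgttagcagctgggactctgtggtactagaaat
The Fgfr4 window held 3 matches, whose first bases lay 188, 93 and 17 bases before the start. The Fgf2 window held 1 match, 72 bases before the start. The Fgf11 window held no match. Of 32851 windows of the same length in the table, 38.6% held at least 1 match and 6.58% held at least 3. Bases G and C made up 64.0% of the Fgfr4 window, 62.4% of the Fgf2 window and 51.2% of the Fgf11 window, against a median of 52.4%. At least 1 match was found for 5 of the 8 genes, which also include Fgfr3, Fgfrl1 and Fgf7. For Fgf11 and Fgfr2 the 40 bases that end the 50 bases after the RefSeq start were in no transcript of the gene in GENCODE M21. The starts of those windows were thus not matched to that annotation, though a splice within the 40 bases would give the same outcome.

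Fgfr4, a receptor tyrosine kinase best known for its control of bile acid synthesis in the liver, had the largest change of the 10. The WT libraries had a lowest, median and highest level of 7.41, 12.1 and 21.2 CPM, and the KO libraries of 0.297, 0.498 and 1.27 CPM. Every KO library lay below every WT library, with 4 to 15 counts in each KO library and 95 to 248 in each WT library. Means were 13.3 ± 4.57 CPM in the WT and 0.584 ± 0.332 CPM in the KO (SD, n = 8), 22.8 times lower. The log2 fold change was -4.53 (SE 0.288 by edgeR, quasi-likelihood test, Benjamini-Hochberg adjusted p = 2.17e-10), and it lay between -4.77 and -4.21 over all alternatives. In the WT the highest libraries were 1, 4 and 2, at 21.2, 17.3 and 15.96 CPM, and the lowest was library 3.

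Fgfr1, the receptor with the highest level here and a main FGF receptor of mesenchymal cells, was modestly lower in the KO. Its lowest, median and highest levels were 363.2, 396.7 and 431.7 CPM in the WT and 287.3, 309.4 and 352.7 CPM in the KO, and the groups did not overlap. Means were 397.7 ± 23.4 and 314.1 ± 23.8 CPM (SD, n = 8), a log2 fold change of -0.34 (SE 0.063 by edgeR, quasi-likelihood test, adjusted p = 1.63e-04). With total counts the difference was -0.037 (adjusted p = 0.670), so this fall is relative to the other genes on the TMM scale. Its exons share 164 bases (1.66%) with the antisense gene Gm16159.

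Fgfr3, whose signal restrains the growth of cartilage in the growth plate, fell less and with overlap. Its lowest, median and highest levels were 6.83, 8.43 and 18.6 CPM in the WT and 4.18, 6.22 and 8.01 CPM in the KO. WT library 3 held the 18.6 CPM, and the other 7 WT libraries lay between 6.83 and 9.32 CPM. The log2 fold change was -0.66 (SE 0.184 by edgeR, quasi-likelihood test, adjusted p = 0.00596) with all libraries and -0.45 (SE 0.124; adjusted p = 0.00596) without WT replicate 3. With total counts it was -0.39 (adjusted p = 0.124). Its exons overlap those of G630022F23Rik on the other strand over 998 bases (13.9% of its exon length), a gene with 162 counts over all 16 libraries.

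Fgfr2, the receptor whose splice forms divide between epithelium and mesenchyme, and Fgfrl1, a receptor that lacks the tyrosine kinase domain, did not pass the test. Fgfr2 had a lowest, median and highest level of 13.2, 22.8 and 27.1 CPM in the WT and of 15.6, 23.4 and 29.05 CPM in the KO. Fgfrl1 had 18.7, 24.5 and 28.4 CPM in the WT and 20.3, 25.1 and 28.7 CPM in the KO. The ranges of the genotypes lay over each other almost completely for both genes. The log2 fold change of Fgfr2 was 0.07 (SE 0.153 by edgeR, quasi-likelihood test, adjusted p = 0.742), and about 2 SE either side of it ran from -0.23 to 0.37. That of Fgfrl1 was 0.05 (SE 0.0902 by edgeR, quasi-likelihood test, adjusted p = 0.658), with a range of -0.12 to 0.23. With total counts both passed, at 0.39 (adjusted p = 0.0136) and 0.37 (adjusted p = 5.80e-04), where the median of all genes was 0.32. The fold change of Fgfr2 was -0.021 without WT replicate 3, its lowest library. Exons of Fgfr2 share 314 bases (3.04%) with Ctbp2 on the same strand, where counting could split the reads.

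The make-up of the receptor pool within a library does not depend on the scaling between libraries. Fgfr1 took 89.9% ± 1.38 of the counts of the 4 kinase receptors in the WT and 91.4% ± 1.48 in the KO (SD, n = 8). Fgfr4 took 3.00% ± 0.950 in the WT and 0.170% ± 0.0971 in the KO, and the highest KO share, 0.374%, was below the lowest WT share, 1.71%. The share of Fgfr2 was 4.92% ± 1.08 and 6.67% ± 1.42, and that of Fgfr3 was 2.16% ± 0.893 and 1.76% ± 0.414, each overlapping between genotypes. These shares are described with no test, and counts favour long transcripts: per kilobase of GENCODE M21 exon length Fgfr4 took 7.86% in the WT and 0.470% in the KO, and Fgfr1 84.9% and 90.8%. On that scale the Fgfr1 shares did not overlap either, with 81.7% to 88.3% in the WT and 89.3% to 93.5% in the KO, whereas its shares of counts did overlap.

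**Figure D2:**
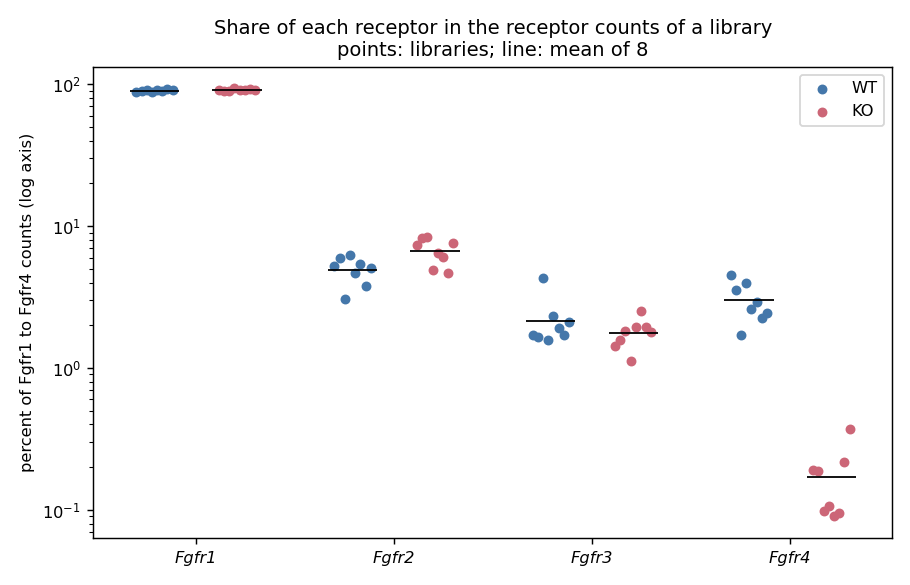
Percent of the summed Fgfr1 to Fgfr4 counts taken by each receptor in each of 8 WT and 8 KO libraries, on a log axis. Points are libraries and lines are means. Fgfr1 stays near 90% in both genotypes (89.9% and 91.4%), and on this scale of counts only the Fgfr4 points of the 2 genotypes lie apart; per kilobase the Fgfr1 shares lie apart as well.

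Per kilobase of exon length, the order of the receptors in the WT was Fgfr1 at 40.3 ± 2.37 CPM, Fgfrl1 at 8.52 ± 1.19, Fgfr4 at 3.76 ± 1.29, Fgfr2 at 2.11 ± 0.478 and Fgfr3 at 1.33 ± 0.525 CPM per kilobase (SD, n = 8). Each was above the next in all 8 WT libraries, except that Fgfr2 was above Fgfr3 in 7 of 8. In the KO, Fgfr4 was last at 0.165 ± 0.0936 CPM per kilobase, below Fgfr3 at 0.837 ± 0.16 in all 8 libraries. The lengths are those of GENCODE M21, and the annotation used for counting is not given in the sources used here.

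Fgf1, the acidic FGF, which binds all FGF receptors and lacks a signal peptide for secretion, fell with no overlap. For Fgf1 the lowest, median and highest levels were 38.5, 45.1 and 53.6 CPM in the WT and 11.4, 13.0 and 17.5 CPM in the KO. Means were 45.3 ± 4.61 and 13.4 ± 1.85 CPM (SD, n = 8), 3.37 times lower in the KO. The log2 fold change was -1.75 (SE 0.0861 by edgeR, quasi-likelihood test, adjusted p = 3.71e-12), and between -1.81 and -1.44 over all alternatives.

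Fgf2, the basic FGF, which also lacks a signal peptide and is stored on heparan sulphate of the matrix, rose. Its lowest, median and highest levels were 73.9, 83.9 and 111.6 CPM in the WT and 110.1, 136.3 and 151.5 CPM in the KO. The groups overlapped through WT library 3 alone, at 111.6 CPM, and the other 7 WT libraries reached at most 99.4 CPM. Means were 87.5 ± 12.5 and 134.4 ± 14.9 CPM (SD, n = 8), a log2 fold change of 0.62 (SE 0.0877 by edgeR, quasi-likelihood test, adjusted p = 8.38e-06). The ratio of Fgf1 to Fgf2 counts within a library was 0.526 ± 0.0888 in the WT and 0.101 ± 0.0166 in the KO (SD, n = 8), described with no test.

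The counts of Fgf2 are uncertain, because 640 bases of its exons (9.44% of the exon length) overlap Nudt6, its antisense partner on the other strand. The use of strand during counting is not given in the sources used here. Nudt6 has the shorter exon length, so the same bases are a larger part of it, and its counts are uncertain as well. Nudt6 was measured at 22.8 ± 2.24 CPM in the WT and 35.2 ± 4.81 CPM in the KO (SD, n = 8), with no overlap. Its log2 fold change was 0.63 (SE 0.0855 by edgeR, quasi-likelihood test, adjusted p = 5.18e-06), beside 0.62 for Fgf2. The Fgf2 counts of a library were 3.83 ± 0.263 times its Nudt6 counts in the WT and 3.83 ± 0.168 times in the KO. The part of shared reads in this was not tested.

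Fgf11 had the largest rise of the 10. It is named as an FGF by its sequence, but it belongs to the FGF homologous factors, which stay inside the cell, are not classical receptor ligands and are known as partners of voltage-gated sodium channels. Its lowest, median and highest levels were 1.74, 2.58 and 4.99 CPM in the WT and 18.8, 27.6 and 33.2 CPM in the KO. Every KO library was above every WT library, and WT library 3 held the highest WT value, with the others at most at 2.98 CPM. Means were 2.76 ± 1.00 and 26.9 ± 4.82 CPM (SD, n = 8), 9.75 times higher in the KO. The log2 fold change was 3.28 (SE 0.176 by edgeR, quasi-likelihood test, adjusted p = 1.82e-11), and between 3.19 and 3.56 over all alternatives. No exon of another GENCODE M21 gene overlaps it.

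Its relative Fgf14, another intracellular FGF homologous factor, moved the other way. Fgf14 fell from 55.7 ± 4.58 to 30.7 ± 4.98 CPM (SD, n = 8) with no overlap (log2 fold change -0.86, SE 0.0898 by edgeR, quasi-likelihood test, adjusted p = 1.63e-07). Per length, Fgf11 stood at 0.0685 ± 0.0262 times Fgf14 in the WT and at 1.25 ± 0.356 times in the KO, a description with no test. The counts of Fgf14 are uncertain, since 220 bases of its exons (5.26%) overlap Gm28932 on the other strand, which was not among the 25719 listed genes. The other members of that group, Fgf12 and Fgf13, did not pass the filter, with at most 4 and 56 counts in a library.

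**Figure D3:**
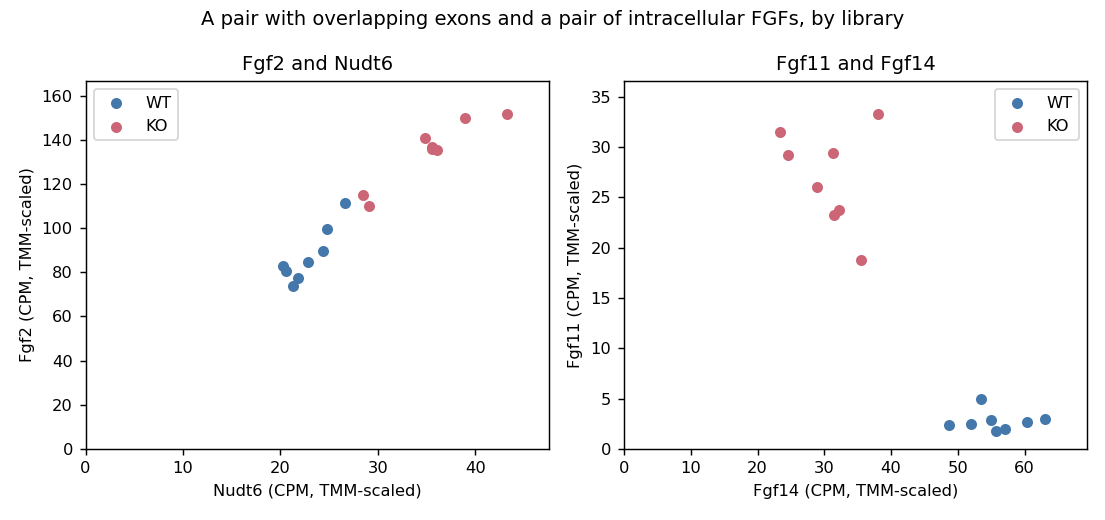
Levels of Fgf2 against Nudt6 (left) and of Fgf11 against Fgf14 (right) in CPM on TMM-scaled library sizes, for 8 WT and 8 KO libraries. On the left the libraries of both genotypes lie along the same line from 0, at a ratio of counts of 3.83 in each. On the right the WT libraries lie at 48.7 to 63.1 CPM of Fgf14 and at most at 4.99 CPM of Fgf11. The KO libraries are lower in Fgf14, at 23.4 to 38.1 CPM, and higher in Fgf11, at 18.8 to 33.2 CPM.

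Fgf18, a secreted ligand with a known role in skeletal growth and a ligand of Fgfr3, fell with overlap. For Fgf18 the lowest, median and highest levels were 7.26, 9.09 and 13.1 CPM in the WT and 4.80, 5.85 and 7.90 CPM in the KO. KO library 7, at 7.90 CPM, lay above the 2 lowest WT libraries, and the other KO libraries lay below all of the WT. Means were 9.72 ± 2.30 and 5.98 ± 1.098 CPM (SD, n = 8), and the log2 fold change was -0.69 (SE 0.145 by edgeR, quasi-likelihood test, adjusted p = 5.37e-04). With total counts it was -0.38 (adjusted p = 0.0237).

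Fgf7, the keratinocyte growth factor, which mesenchymal cells make and which acts on the epithelial form of Fgfr2, did not pass the test. For Fgf7 the lowest, median and highest levels were 4.64, 7.38 and 11.5 CPM in the WT and 3.61, 6.99 and 11.7 CPM in the KO. The ranges covered each other. The log2 fold change was -0.08 (SE 0.245 by edgeR, quasi-likelihood test, adjusted p = 0.819). About 2 SE either side of it ran from -0.56 to 0.40, so changes within that range remain compatible with these libraries.

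The FGF genes were also ordered by level, with Fgf11 included though it is not a classical receptor ligand. Per kilobase of exon length the order in the WT was Fgf2 at 12.9 ± 1.84, Fgf1 at 8.29 ± 0.843, Fgf18 at 8.19 ± 1.94, Fgf7 at 2.34 ± 0.802 and Fgf11 at 0.906 ± 0.328 CPM per kilobase (SD, n = 8). Fgf1 and Fgf18 did not differ beyond their spread, with Fgf1 the higher in 6 of 8 libraries. In the KO the order was Fgf2 at 19.8 ± 2.20, Fgf11 at 8.83 ± 1.58, Fgf18 at 5.04 ± 0.925, Fgf1 at 2.46 ± 0.338 and Fgf7 at 2.22 ± 0.871 CPM per kilobase. There Fgf1 and Fgf7 did not differ beyond their spread, with Fgf1 the higher in 6 of 8 libraries.

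**Figure D4:**
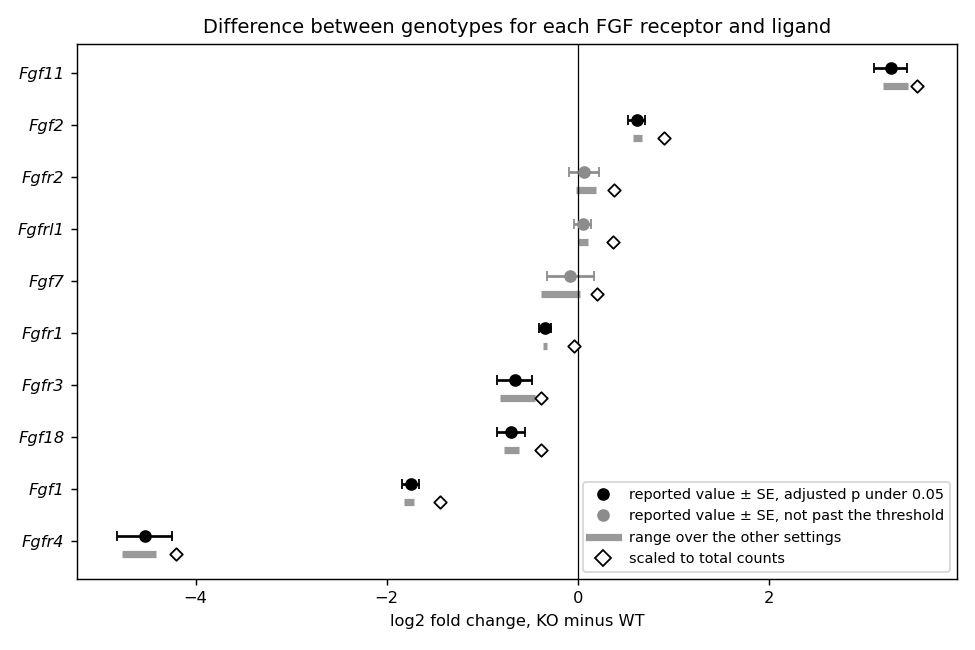
Log2 fold change (KO minus WT) of the 10 genes with its SE, the range over all alternatives other than total counts (grey bars) and the value with total counts (diamonds). Fgfr4 (-4.53) and Fgf11 (3.28) stand at the ends, and every diamond lies to the right of the reported value.

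Of 17 other FGF genes, 6 passed the filter on low counts. Calls were made for 4 of the 6 (66.7%, beside 48.3% of all tested genes). Fgf22 rose, from 1.86 ± 0.746 to 3.21 ± 0.622 CPM (SD, n = 8; log2 fold change 0.80, edgeR quasi-likelihood test, adjusted p = 0.00369). Fgf10, a mesenchymal ligand of Fgfr2, fell from 3.27 ± 1.62 to 1.46 ± 0.467 CPM (-1.19, adjusted p = 0.00114). Fgf9, a ligand of the mesenchymal receptor forms, fell from 61.4 ± 10.4 to 47.4 ± 9.49 CPM (-0.37, adjusted p = 0.0146), and stood at -0.07 (adjusted p = 0.602) with total counts. Fgf14 also fell, as given above, and Fgf16 and Fgf20 did not pass the test; with total counts 1 of the 6 was higher and 2 lower. Of the 11 FGF genes not tested, Fgf3 had no count in the 16 libraries.

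Across 6 lists of other FGF pathway genes, 93 of 111 listed genes were tested, and 29 rose and 24 fell. The 53 calls are 57.0% of the tested genes, beside 48.3% of all genes, and the median log2 fold change was 0.02 in both. The 6 lists were chosen with earlier results of these data known, so their larger share is not evidence about the pathway. With total counts 57 of the 93 were higher and 13 lower. On that scale 65.4% of all tested genes were called, and 85.4% of those calls were higher.

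Proteoglycans and other co-receptors, which hold FGFs at the cell surface, went both ways: 5 of 17 tested rose and 6 fell (8 and 4 with total counts). Calls made up 64.7% of the 17, beside 48.3% of all tested genes. The cell-surface proteoglycan Sdc1 fell from 229.1 ± 54.3 to 42.2 ± 4.15 CPM and Flrt1, a membrane protein that can bind FGF receptors, from 22.7 ± 6.02 to 2.57 ± 1.26 CPM (SD, n = 8). Their log2 fold changes were -2.44 and -3.17 (edgeR quasi-likelihood test, adjusted p = 1.04e-11 and 3.96e-08). Glypican Gpc3 fell by 1.30 on the log2 scale (adjusted p = 2.95e-08). Sdc4 rose from 154.3 ± 13.6 to 348.02 ± 64.2 CPM (1.17, adjusted p = 8.98e-09), Gpc1 rose by 0.80 (adjusted p = 7.86e-07), and Hspg2, which encodes the basement membrane proteoglycan perlecan, by 0.86 (adjusted p = 4.25e-05). The groups overlapped for Hspg2, and did not for the other 5.

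Enzymes that build or trim heparan sulphate were also split, with 5 of 16 tested rising and 5 falling (10 and 3 with total counts). A share of 62.5% was called, beside 48.3% of all tested genes. Hs6st2, a 6-O-sulphotransferase, rose from 0.379 ± 0.248 to 2.98 ± 1.13 CPM (log2 fold change 2.92, edgeR quasi-likelihood test, adjusted p = 9.33e-07). Its WT libraries, at 0.078 to 0.697 CPM, lay around the WT detection floor of 0.209 to 0.336 CPM. It passed the filter on low counts through the KO libraries, so the size of its rise is uncertain. Hpse, the heparanase that cuts the chains, rose from 1.21 ± 0.418 to 7.56 ± 1.30 CPM (2.64, adjusted p = 3.28e-10), and Ext1, a chain polymerase, from 50.6 ± 5.64 to 88.1 ± 5.88 CPM (0.80, adjusted p = 6.92e-09). The 3-O-sulphotransferases Hs3st3a1 (-1.39, adjusted p = 1.62e-09) and Hs3st3b1 (-1.23, adjusted p = 2.73e-07) and the epimerase Glce (-0.75, adjusted p = 5.56e-05) fell.

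The kinases and adaptors that carry the signal were called at a share near that of all genes, 44.0% beside 48.3%. Of 25 tested, 6 rose, 5 fell and 14 did not pass (20 higher and 1 lower with total counts). Map2k1, the kinase MEK1 above ERK, rose from 45.8 ± 4.73 to 73.3 ± 8.84 CPM (log2 fold change 0.68, edgeR quasi-likelihood test, adjusted p = 7.33e-07). Stat3 rose by 0.55 (adjusted p = 3.94e-07) and Sos2, an activator of RAS, by 0.27 (adjusted p = 0.00695). Pik3r1, the regulatory subunit of phosphoinositide 3-kinase, fell from 752.6 ± 114 to 339.4 ± 36.4 CPM (-1.15, adjusted p = 7.55e-09). Plcg1 (-0.35, adjusted p = 9.49e-04) and the adaptor Gab1 (-0.35, adjusted p = 0.0134) also fell, but stood at -0.04 each with total counts (adjusted p = 0.634 and 0.748).

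Of 14 tested genes listed as feedback inhibitors, 5 rose and 3 fell (7 and 2 with total counts). The share called was 57.1%, beside 48.3% of all tested genes. Dusp5, a nuclear phosphatase of ERK, rose from 1.34 ± 0.461 to 5.32 ± 0.722 CPM (log2 fold change 1.98, edgeR quasi-likelihood test, adjusted p = 2.50e-08). Spred2 rose by 0.29 (adjusted p = 2.89e-04) and Lgals3 by 0.88 (adjusted p = 3.82e-05). Lgals3 is counted here because it was listed, and whether it inhibits this route was not tested. Spry4, a Sprouty inhibitor, fell from 32.0 ± 5.77 to 19.6 ± 3.37 CPM (-0.71, adjusted p = 3.91e-05), and Il17rd, also called Sef, from 61.1 ± 4.96 to 41.7 ± 3.62 CPM (-0.55, adjusted p = 7.74e-07), both with no overlap. The ubiquitin ligase Cbl differed by -0.18 (adjusted p = 0.0432), and by 0.12 (adjusted p = 0.167) with total counts.

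Of 15 target transcription factors and early genes, 7 rose and 2 fell (11 and 1 with total counts), with a median log2 fold change of 0.36. The calls were 60% of this list, beside 48.3% of all tested genes (25.6% higher and 22.7% lower). Ier3 rose from 36.4 ± 5.75 to 166.7 ± 49.4 CPM (2.19, edgeR quasi-likelihood test, adjusted p = 4.50e-09), Egr3 by 1.52 (adjusted p = 0.00162) and Egr2 by 1.27 (adjusted p = 0.00190). The 2 that fell were the ETS factors Etv4, from 10.6 ± 2.18 to 4.67 ± 1.06 CPM with no overlap (-1.17, adjusted p = 2.84e-06), and Etv5, from 34.6 ± 4.09 to 27.8 ± 2.19 CPM (-0.31, adjusted p = 0.00191). With total counts Etv5 stood at -0.01 (adjusted p = 0.893). The counts of some named genes are uncertain to differing degrees, because their exons share bases with antisense genes. The shared part of the exon length was 32.9% for Hs3st3a1, 22.1% for Dusp5 and 18.9% for Gpc1. It was 5.23% for Gab1, 3.65% for Fgf22, 2.67% for Fgf10 and 0.756% for Stat3. Plcg1 shared 3.16% and 4.82% with its antisense genes. Those of Hs3st3a1, Dusp5, Gab1 and Fgf10 were not among the 25719 listed genes.

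**Figure D5:**
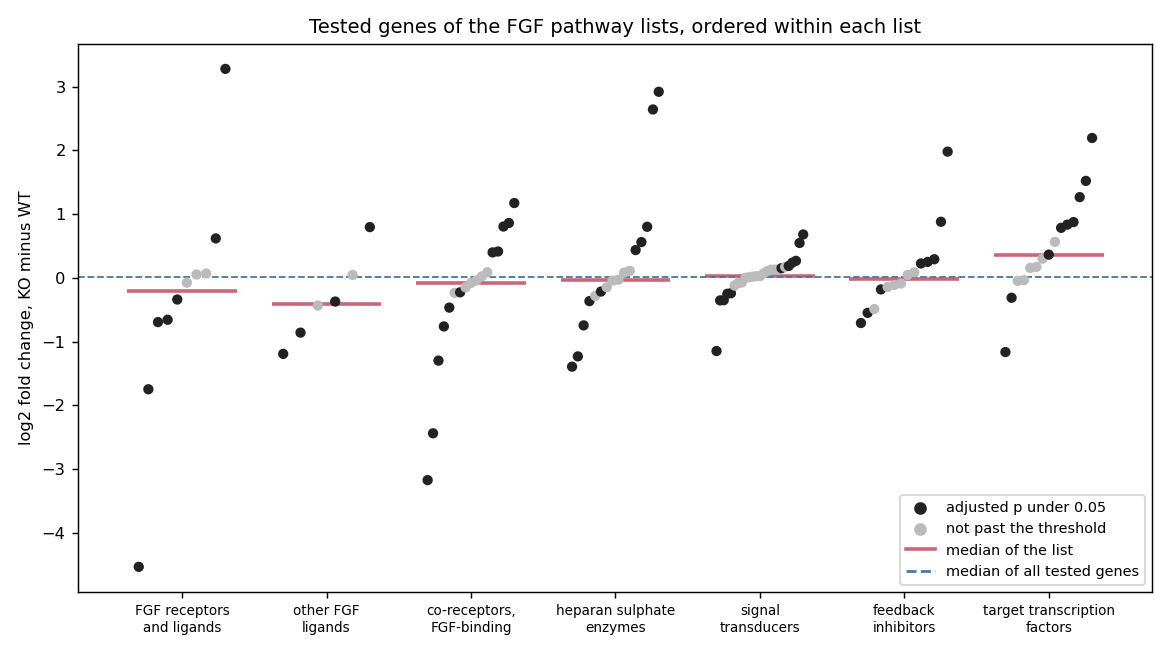
Log2 fold change (KO minus WT) of every tested gene of the FGF receptors and ligands and of the 6 other pathway lists, in rising order within each list. Black points passed the threshold and grey points did not, red lines are list medians and the dashed line is the median of all tested genes (0.02). Calls lie on both sides of 0 in all 7 columns.

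Genes that varied most like the 7 called members between libraries of the same genotype were ranked by the Pearson correlation r of log2 CPM after removal of each genotype's mean, over 16 libraries. The highest were Pkd1, Asap1 and Cep164 for Fgfr1 (r = 0.92, 0.91 and 0.90). For Fgfr3 they were Ebf2, Cd151 and Fgd5 (r = 0.86, 0.86 and 0.85), and for Fgfr4 Rxra, Ppm1l and Frmd4a (r = 0.86, 0.85 and 0.83). For Fgf2 they were Zfp365, Nudt6 and Zfp958 (r = 0.91, 0.89 and 0.88), of which Nudt6 shares exonic bases with it. For Fgf11 they were Flt3l, Plekha6 and Kcnt2 (r = 0.89, 0.84 and 0.84). For Fgf1 they were Trap1, Slc16a9 and Tcn2 (r = 0.77, 0.76 and 0.75), and for Fgf18 Arsa, Slc46a3 and Tcn2 (r = 0.85, 0.84 and 0.83). These are the highest values among 14626 genes and share library and depth, so they describe these libraries only.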

How the data were processed

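Tail tendon fascicles of 8 WT and 8 KO libraries took their group from the genotype in the sample title. The authors deposited 1 table of raw counts per library, with 25719 Ensembl genes, per the file headers. The submitters' processing notes name GRCm39, kallisto and featureCounts, without roles or versions; strand use and annotation are not given in the sources used here. Symbols from the supplied name table matched 25614 identifiers. Total counts ran from 10488355 to 18753254, and floors cover counting error only. The most similar pair of libraries of one group differed by 6.56 chi-square units per degree of freedom over 14096 genes, so none was counted as a repeat.

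The 10 members, the 6 pathway lists and the marker lists were chosen with earlier results of these data known. Genotype was tested with the robust quasi-likelihood F test of edgeR 4.0.16 (R 4.3.3), two-sided, with TMM scaling, the default expression filter and Benjamini-Hochberg adjustment over 14803 genes at a threshold of 0.05. Log2 CPM used a prior count of 2. Besides the 10 members and Vhl, up to 3 called genes per direction and pathway list with a mean of at least 1 CPM were named, and the 3 genes most alike to each called member. Nudt6, G630022F23Rik, Gm28932, Gm16159, Ctbp2, Krt1, Krt5, Krt14, Krt15, Krt10, Dsp, Trp63, Lor, Dsg3, Fgf3, Fgf12, Fgf13, Fgf16 and Fgf20 were named for overlap, as markers or to complete a list. Exon lengths and overlaps come from GENCODE M21 (GRCm38), and upstream sequences from RefSeq (GRCm38.p6). On data simulated for KO against WT with 14729 genes, the test called 81.2% of 85 genes with a log2 change of 1 and 95.7% of 115 with a log2 change of 2. The changed genes were a far smaller share than the 48.3% called in the data, so these rates may not hold for this comparison. Alternatives were other scalings, other filters, DESeq2 1.42.0, limma 3.58.1 voom with quality weights, the replicate number as a block, muscle and Y-linked levels as covariates (Y-linked transcripts were found in 2 of 8 libraries of each genotype), and libraries left out.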

Additional observations from a re-analysis of the deposited data

Results flagged for a closer look

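The lowest and highest of 8 libraries were compared with their neighbours in 30 checks, and 3 checks found a wide gap. About 1 check in 20 does so by chance, which is 1.5 of the 30. WT library 3 had the highest Fgfr3, at 4.23 log2 CPM against 3.24 in the next WT library. It also had the highest share of Fgfr3 in the kinase receptor counts, 4.28% against 2.32% in the next. Among WT libraries it was lowest for Fgfr2, Fgfr4 and Fgfrl1 and highest for Fgf2 and Fgf11. For Fgfr1, Fgf1, Fgf7 and Fgf18 it lay within the others. Its TMM factor, 1.07, lay in the KO range of 1.06 to 1.17, where the other WT libraries reached at most 0.935. The summed tenocyte, chondrocyte and macrophage markers of this library, 137796, 746.1 and 1170.1 CPM, were below the other WT libraries, and its keratinocyte and adipocyte markers, 54.7 and 60.9 CPM, were above them. The part of these in its Fgfr3 level was not tested. KO library 8 had the highest KO share of Fgfr4, 0.374% against 0.218% in the next, on 15 counts.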

How the results depend on the processing

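The 27 alternatives left 7 of the 10 genes called in each, though not the same 7 with total counts, and Fgfr4, Fgf1, Fgf2, Fgf11 and Fgf18 kept their direction and side of the threshold in all of them. With scaling to total counts, Fgfr1 stood at -0.037 and Fgfr3 at -0.39, no longer called, Fgfr2 at 0.39 and Fgfrl1 at 0.37, newly called, and Fgf7 at 0.21. It gave 4 of the 10 genes higher and 3 lower, 57 pathway genes higher and 13 lower, and 8270 of all genes higher and 1415 lower, against 3792 and 3359 with TMM. Fgf7 moved furthest with the muscle markers as a covariate (-0.38, adjusted p = 0.236 by edgeR), also changed sign with limma-voom (0.021), and over single libraries left out it ranged from -0.22 to 0.030 and Fgfr2 from -0.021 to 0.13. Per kilobase, the share of Fgfr1 in the WT was 84.9%, of Fgfr3 in the KO 2.41%, and of Fgfr4 0.470% in the KO and 7.86% in the WT. With Spearman in place of Pearson correlation, 0 of the 3 most alike genes were the same for Fgf1 and Fgf11, 1 for Fgf2 and Fgfr3, and 2 for Fgf18, Fgfr1 and Fgfr4. Replicate numbers do not pair the libraries: deviations of same-numbered libraries correlated between -0.40 and 0.39, over 0.1 in 3 of 8 pairs, and 2 of 16 libraries were most like their own number. With the replicate number as a block 7 of the 10 genes and 7010 of all genes were called, and no call of the 10 changed. Depth limits Fgfr4 in the KO, which rests on 4 to 15 counts per library.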
